A study of Mus musculus with 20 samples.

Results

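The proteasome is the protease of the cytosol and nucleus that degrades proteins tagged with ubiquitin. Its core particle is a barrel of alpha and beta subunits, in which some of the beta subunits cut proteins, and a regulatory particle made of a base and a lid recognises, unfolds and feeds in the substrate. The genes of this machine were taken as all probe sets with a single gene symbol made of Psma, Psmb, Psmc or Psmd and a number, which gave 38 of the 19505 genes with 1 symbol, with 1 probe set each. They fell into 8 alpha subunits, 6 constitutive beta subunits, 4 inducible or tissue-restricted beta subunits, 6 ATPases, 3 further base subunits, 8 lid subunits and 3 chaperones of base assembly. The probe set of Psmb5 was not analysed here.

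RNA was measured in nucleus pulposus (NP), the gel-like centre of the intervertebral disc, and annulus fibrosus (AF), the fibrous ring around it, of 5 WT and 5 ank mice at 13 weeks of age. The ank mice were homozygous (ank/ank) for the progressive ankylosis allele, which attenuates ANK, a membrane protein that controls extracellular pyrophosphate, and the WT mice were their littermates. Each group had 2 males and 3 females, each array held the discs of 1 animal, and each mouse gave an AF and an NP array. The labels name caudal and lumbar discs, whereas the study's methods name caudal discs alone. In whole tissue, fewer cells of a type and less RNA per cell cannot be told apart.

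Values were log2 signals of Clariom S arrays. Signals of different probe sets are not on 1 scale, so levels are compared between arrays and not between genes, and means of several genes serve only to compare arrays. The background of an array was set at the 95th percentile of the signals of 1427 genes of sensory receptors (smell, pheromones, trace amines), and a gene was tested in a tissue if it exceeded this in at least 5 of its 10 arrays. The separation of positive from negative control probe sets (area under the curve, AUC) was 0.71 to 0.789 in NP arrays and 0.59 to 0.763 in AF arrays, lowest in AF ank mouse 31. Within each tissue the arrays fell into 2 sets by their polyA spike-in controls, and both sets held both genotypes. AF WT mouse 33 carried skeletal muscle markers at a mean log2 signal of 13.61, against 5.30 to 7.82 in the other 9 AF arrays. It also stood apart in endothelium markers (9.66 against 4.76 to 5.78) and leukocyte markers (7.52 against 5.11 to 6.05). The list of 7 NP markers averaged 15.19 to 15.72 in NP arrays. In AF arrays it averaged 8.59 to 13.22 in WT and 10.45 to 14.47 in ank. Of 8 AF and tendon markers, the matrix genes Comp, Col1a1, Col1a2 and Fmod were above background in 10 of 10 AF arrays and Thbs4 in 8, while Tnmd was in 2 and the transcription factors Scx and Mkx in 0. This list averaged 10.004 to 12.83 in WT AF and 9.49 to 11.15 in ank AF. In NP it averaged 7.72 to 9.41 in WT and 7.56 to 7.94 in ank arrays. Male Y-linked transcripts separated the sexes in NP, but not in AF, where ank mouse 31 lay among the females. Of the 4 AF males, 3 lay above every female for Eif2s3y and for Uty, and 1 for Kdm5d.

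Promoter windows show what the subunit genes share in sequence. Of the 38 genes, 31 matched a RefSeq window (GRCm38.p6, 250 bases before to 50 after the start of transcription), with 33 windows among them. The windows were searched on both strands for 6 motifs taken from general knowledge, and a match is a description of the letters alone. The core of ETS factor sites, CCGGAAG, occurred in 33.3% of proteasome windows, against 8.86% of all 32851 windows and 18.1% of the windows of genes tested in NP. The GC box GGGCGG occurred in 57.6% of proteasome windows, 35.7% of all and 62.7% of those of genes tested in NP. The CCAAT box (CCAAT) occurred in 39.4%, 37.4% and 38.2%, respectively. TGACNNNGC, the antioxidant response element through which NFE2L1 is known to raise proteasome genes, occurred in 12.1%, 12.4% and 14.2%. The core of nuclear respiratory factor sites, GCGC followed by any 2 bases and GCGC again, occurred in 18.2%, 6.23% and 13.9%, and the E-box CACGTG in 9.09%, 7.15% and 10.1%. In the 4 whole windows printed here no matches of different motifs overlapped.

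The ETS core lay in the windows of 9 of 17 genes of the regulatory particle and its assembly and in 1 of 14 genes of the core particle, Psma6. Those 14 include the 4 inducible or tissue-restricted beta genes, of which 0 had a match, and only 3 of the 6 constitutive beta genes. The difference between the particles was not tested. These are the matches in the regulatory particle genes, printed to show the shared letters (capitals) with 7 bases on each side, on the strand that reads CCGGAAG:
Psmc1 chr12:100110167-100110187, minus strand: gccaccgCCGGAAGtgcatcc
Psmc2 chr5:21785184-21785204, minus strand: ccccatcCCGGAAGtgctcac
Psmc2 chr5:21786716-21786736, minus strand: ttccccaCCGGAAGtagctcc
Psmc6 chr14:45329717-45329737, plus strand: gggccagCCGGAAGgggcgga
Psmd2 chr16:20651619-20651639, minus strand: ctccagaCCGGAAGcgccctg
Psmd4 chr3:95042726-95042746, minus strand: agctgttCCGGAAGctgctgc
Psmd6 chr14:14120977-14120997, minus strand: gacgcgaCCGGAAGtcagact
Psmd11 chr11:80428597-80428617, minus strand: cacacacCCGGAAGacccgcc
Psmd12 chr11:107479504-107479524, minus strand: actcgcaCCGGAAGtcgcccg
Psmd13 chr7:140882381-140882401, plus strand: cgcggtgCCGGAAGtgagcga

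The whole windows are printed for the 4 genes that passed a threshold between genotypes or tissues at the main settings. Capitals mark the matches of the 6 motifs, which are the ETS core in Psmd13, GC boxes in Psmd8 and Psmd5, and CCAAT boxes (ATTGG on the other strand) and the nuclear respiratory factor core in Psma3.
Psmd13 chr7:140882144-140882443, plus strand: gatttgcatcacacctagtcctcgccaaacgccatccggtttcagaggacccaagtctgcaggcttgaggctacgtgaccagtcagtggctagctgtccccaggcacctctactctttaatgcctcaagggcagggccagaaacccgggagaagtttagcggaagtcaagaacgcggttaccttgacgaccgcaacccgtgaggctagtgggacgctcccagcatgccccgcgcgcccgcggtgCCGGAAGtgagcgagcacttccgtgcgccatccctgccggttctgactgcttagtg
Psmd8 chr7:29180624-29180923, minus strand: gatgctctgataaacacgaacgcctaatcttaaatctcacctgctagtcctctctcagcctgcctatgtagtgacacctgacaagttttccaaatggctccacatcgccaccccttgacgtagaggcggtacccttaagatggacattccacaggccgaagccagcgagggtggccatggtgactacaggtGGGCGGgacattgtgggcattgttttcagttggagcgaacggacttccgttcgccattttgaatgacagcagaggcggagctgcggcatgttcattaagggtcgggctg
Psmd5 chr2:34870913-34871212, minus strand: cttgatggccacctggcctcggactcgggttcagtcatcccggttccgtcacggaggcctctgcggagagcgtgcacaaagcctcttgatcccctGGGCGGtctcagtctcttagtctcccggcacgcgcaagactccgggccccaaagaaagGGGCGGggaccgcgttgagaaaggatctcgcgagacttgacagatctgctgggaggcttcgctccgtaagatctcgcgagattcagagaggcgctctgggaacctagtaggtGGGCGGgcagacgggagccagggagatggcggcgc
Psma3 chr12:70974373-70974672, plus strand: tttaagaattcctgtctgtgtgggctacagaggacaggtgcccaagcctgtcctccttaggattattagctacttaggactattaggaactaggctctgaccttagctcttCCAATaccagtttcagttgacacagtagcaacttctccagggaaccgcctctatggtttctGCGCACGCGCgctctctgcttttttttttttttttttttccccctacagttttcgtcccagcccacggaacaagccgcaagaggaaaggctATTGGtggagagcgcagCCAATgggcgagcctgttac

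Most of the constitutive machine was above background in NP. Of the 38 genes, 31 could be tested in NP and 19 of these were above background in all 10 arrays. In AF 22 could be tested, and only Psma4, Psmc3 and Psmd7 were above background in all 10 arrays. The inducible beta genes Psmb8, Psmb9 and Psmb10, which replace the catalytic subunits when interferon forms the immunoproteasome, were above background in 0 of 20 arrays. The same held for Psmb11, the beta subunit of the thymus, Psma8, the alpha subunit of the testis, and Psmd10 (gankyrin), a chaperone of base assembly. Psmc5, an ATPase, passed in 0 NP arrays and 2 AF arrays. The other genes not tested in AF were Psma5, Psma7 and Psmd5 (above background in 2 AF arrays), Psma3, Psmb2 and Psmc6 (3 arrays), Psmb3 and Psmd6 (4 arrays) and Psmd9 (0 arrays). The signal of Psmb8 was 5.21 to 6.52 over the 20 arrays, that of Psmb9 3.10 to 5.93 and that of Psmb10 4.29 to 5.95. These statements hold for the background set at the receptor genes. Against the lower mean of the antigenomic control probes, 3 of the 4 inducible or tissue-restricted beta genes passed in at least 5 of 10 NP arrays and 2 of the 4 in AF.

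The number of proteasome genes above background differed more between arrays than between genotypes. It was 22 to 31 in NP WT, 21 to 31 in NP ank, 15 to 29 in AF WT and 5 to 31 in AF ank arrays. The lowest value, 5, was that of AF ank mouse 31, and the highest AF value, 31, that of AF ank mouse 41. The control AUC was 0.59 in AF ank mouse 31 and 0.607 in AF WT mouse 53 (15 genes), against 0.749 in AF ank mouse 41 and 0.763 in AF WT mouse 33 (29 genes). The rank of the genes within each array, a measure not comparable in size with the counts, was taken for the 31 genes tested in NP. Their median lay at a mean percentile of 85.3 ± 2.13 in NP WT, 86.5 ± 0.62 in NP ank, 85.3 ± 2.67 in AF WT and 84.6 ± 4.14 in AF ank (SD, n = 5 each). Single arrays ran from 78.3 in AF ank mouse 31 to 88.7 in AF WT mouse 59.

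**Figure D1:**
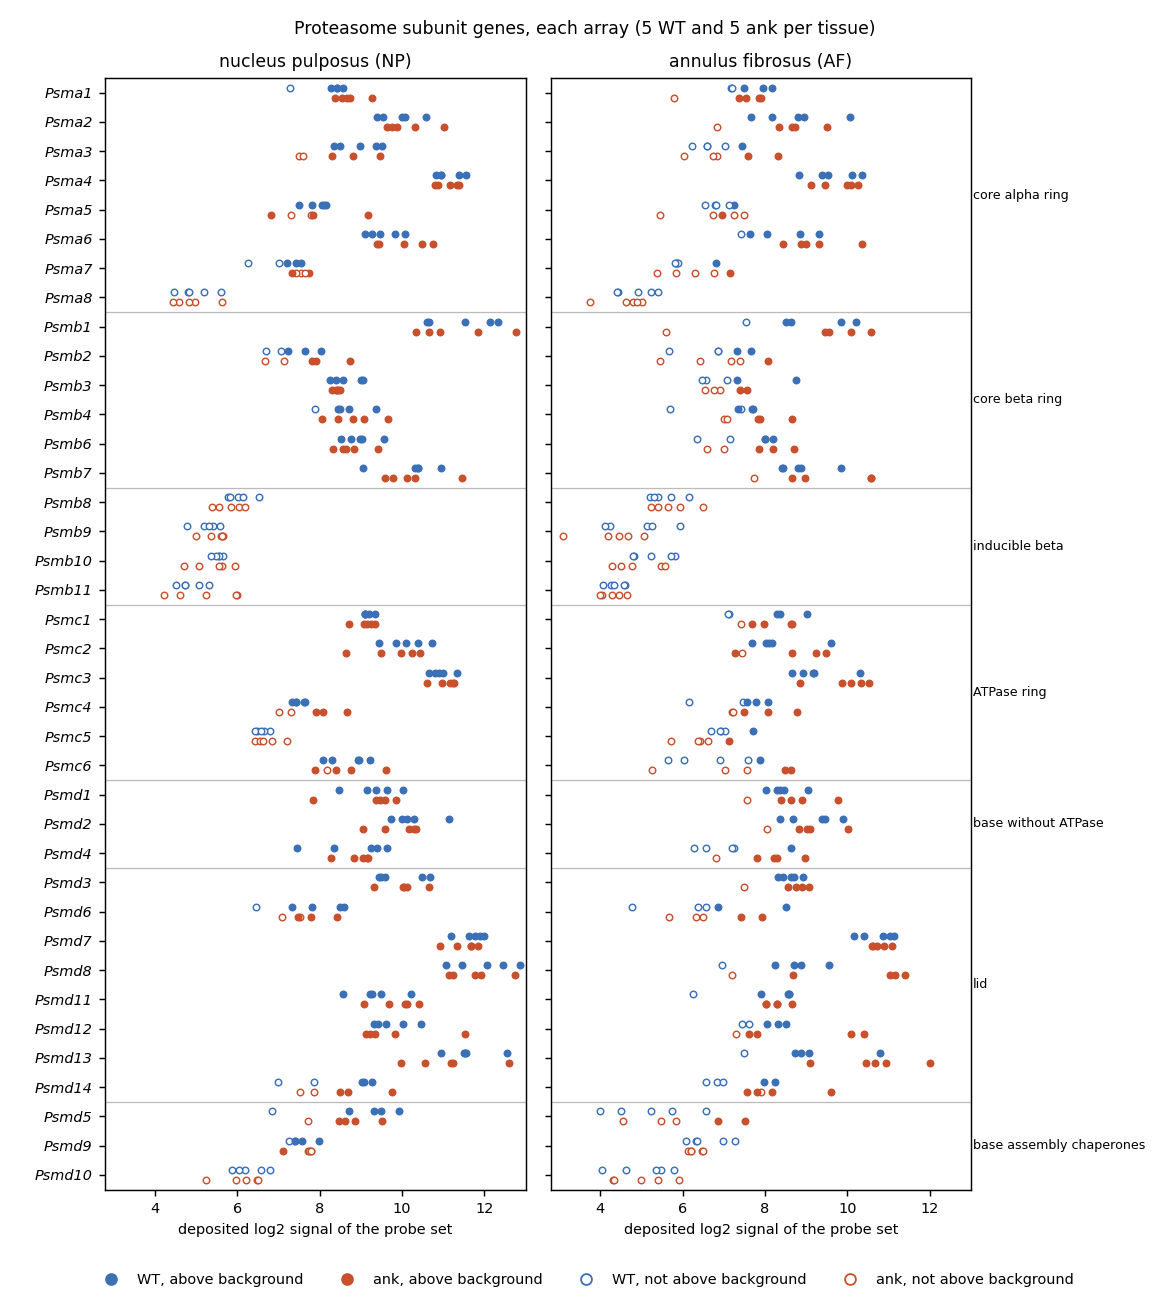
Deposited log2 signal (x axis) of each of the 38 proteasome genes (rows, by role) in NP (left) and AF (right), with 1 point per array, WT in blue and ank in red, and open points not above background. The inducible beta genes are open in all arrays, and the AF points spread more widely than the NP points.

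**Figure D2:**
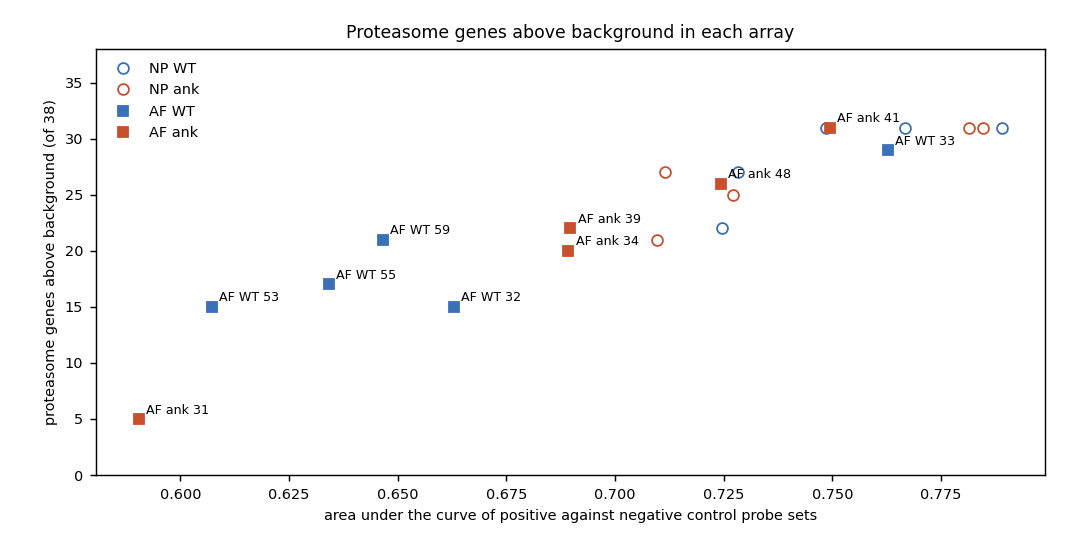
Number of the 38 proteasome genes above background (y axis) against the control AUC of the array (x axis), with AF arrays as labelled squares and NP arrays as open circles. AF ank mouse 31 has 5 genes and AF ank mouse 41 has 31.

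In NP, no proteasome gene passed the thresholds that the study used, which were a p under 0.05 before adjustment and a fold of 1.75 or more, between ank and WT. Of all 6340 genes tested, 3.31% passed in either direction, 0.505% being higher and 2.81% lower in ank. None of the 31 reached an unadjusted p under 0.05 in limma, and none passed with the methods' t-test. The median difference was -0.02 on the log2 scale with 15 genes higher and 16 lower in ank. Over all genes tested the median was -0.11, with 37.8% higher in ank. The mean of the 31 genes was 9.35 ± 0.32 over WT arrays and 9.34 ± 0.31 over ank arrays (SD, n = 5 each). No gene had genotypes that did not overlap, which 0.757% of all genes tested did. Of the 8 AF and tendon markers 3 were tested in NP, and 3 were lower in ank. Among them Col1a1 (-1.48) and Fmod (-0.98) passed the study's thresholds. Of the 6 NP markers tested in NP, 2 were higher and 4 lower in ank, with 0 past the thresholds. The part of these markers in the NP results was not tested.

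Among the alpha subunits, which gate the barrel, the largest NP difference was that of Psma3. Its WT arrays read 8.50, 8.34, 9.37, 8.98 and 9.51 and its ank arrays 7.49, 7.60, 8.30, 9.46 and 8.80. The ank arrays of mice 31, 34 and 39 lay below every WT array, and the other ank arrays lay within the WT range. The difference was -0.61 ± 0.41 (SE; limma, 95% interval -1.48 to 0.27, adjusted p = 0.973). Without ank mouse 41 it was -0.89 (adjusted p = 0.749), past the study's thresholds. That setting called 2 proteasome genes, Psma3 and the lid gene Psmd13 at -0.87, where 5.5% of all genes were called, and within spike-in set A the 2 called were Psma3 at -0.94 and Psmd8 at -0.83, where 3.63% were. Psma1 differed by 0.52 (adjusted p = 0.973), with WT mouse 33 at 7.28 and the other WT arrays at 8.28 to 8.57.

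The beta subunits of the inner rings showed NP differences from -0.23 (Psmb3) to 0.31 (Psmb2). The extremes of the ATPases, which unfold the substrate, were Psmc2 at -0.34 ± 0.38 and Psmc4 at 0.31 ± 0.33 (adjusted p = 0.973 for both). Psmc2 ran from 9.43 to 10.73 in WT and from 8.63 to 10.43 in ank arrays. In the rest of the base, Psmd2, a docking subunit for shuttle factors, differed by -0.37 ± 0.35 (adjusted p = 0.973), and Psmd4, a ubiquitin receptor, by 0.09. None of these differences reached an unadjusted p under 0.05.

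In the lid, Psmd11 read 10.23, 8.58, 9.27, 9.50 and 9.23 in WT NP and 10.06, 10.42, 10.13, 9.07 and 9.70 in ank NP. The ranges overlapped, and the difference was 0.52 ± 0.36 (adjusted p = 0.973). Psmd13 differed in the other direction, by -0.50 (95% interval -1.47 to 0.47), and Psmd14, the deubiquitinase of the lid, by 0.03. Of the assembly chaperones, Psmd5 differed by -0.23 ± 0.52 (adjusted p = 0.987), and Psmd9 by 0.11.

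In AF, 1 of 22 proteasome genes, Psmd13, passed the study's thresholds, being higher in ank, and none was called after adjustment over all genes. Of all 4080 genes tested in AF, 3.7% passed, 3.55% being higher in ank and 0.147% lower. The share of the proteasome genes was thus near that of all genes. The median difference was 0.25 with 18 of 22 genes higher in ank, beside 0.28 over all genes tested, of which 72.4% were higher. With quantile normalization within AF, which makes the arrays equal in distribution, the median was 0.05, with 11 of 22 higher, and Psmd13 kept its call at 1.35. That scaling also moved the calls over all genes from 145 higher and 6 lower to 85 higher and 42 lower. With the control AUC as a covariate the median was likewise 0.05, with 14 of 22 higher, Psmd13 kept its call at 1.19, and the calls over all genes were 140 higher and 53 lower. No proteasome gene had genotypes that did not overlap, which 0.343% of all genes did.

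Psmd13, a structural subunit of the lid, read 8.72, 10.79, 7.49, 9.07 and 8.87 in WT AF of mice 32, 33, 53, 55 and 59. In ank AF of mice 31, 34, 39, 41 and 48 it read 9.10, 10.67, 10.45, 12.00 and 10.93. The WT arrays other than that of mouse 33 lay below every ank array, while WT mouse 33 lay within the ank range. The ank mean was higher by 1.65 ± 0.64 on the log2 scale (SE), a fold of 3.13 (limma, 95% interval of the log2 difference 0.25 to 3.04, adjusted p = 0.947). Psmd13 was above background in 4 of 5 WT and 5 of 5 ank AF arrays. The reading of WT mouse 53 lay below the background of its array, 7.62, so the fold rests in part on a signal at background. The methods' t-test on the same values also passed the study's thresholds for Psmd13 and for no other proteasome gene.

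The call of Psmd13 rested on single arrays and on 1 of the 2 spike-in sets. Leaving out WT mouse 53 gave 1.27 and leaving out ank mouse 41 gave 1.30, neither of them past the study's thresholds, and in both fits 0 proteasome genes were called, where 1.99% and 1.64% of all genes were. Within spike-in set A, with 2 arrays per genotype, the difference was 0.13 (SE 1.01). Within set B, with 3 per genotype, it was 2.65 (adjusted p = 0.0941). In AF, set A held WT mice 32 and 33 and ank mice 31 and 34. The spike-in set therefore cannot be told apart from the arrays of WT mouse 33 and ank mouse 31. Set B called 5 of 22 proteasome genes, all higher in ank, namely Psmd13, Psmd8 (2.19), Psmd4 (1.82), Psmc3 (1.40) and Psmb7 (1.36), where 23.9% of all genes were called. Set A called 0 of 22, where 1.25% of all genes were, and its median over the 22 genes was -0.41 with 4 higher, against 0.91 with 21 higher in set B. Over all genes the median was -0.25 with 37.1% higher in set A, and 0.67 with 77.2% higher in set B. Marker genes of both tissues moved with genotype in AF, and their part in the AF results was not tested. Of the 7 NP markers 6 were tested, with 5 higher in ank AF and a median of 1.78, running from Car3 at -0.03 over Krt18 at 0.47, Cd24a at 1.47, Krt8 at 2.10 and Lgals3 at 2.67 to Krt19 at 3.11. Of the 8 AF and tendon markers 5 were tested, and 5 were lower in ank AF with a median of -0.89, from Col1a1 at -2.12 to Fmod at -0.25. None of these marker genes passed the study's thresholds in AF.

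**Figure D3:**
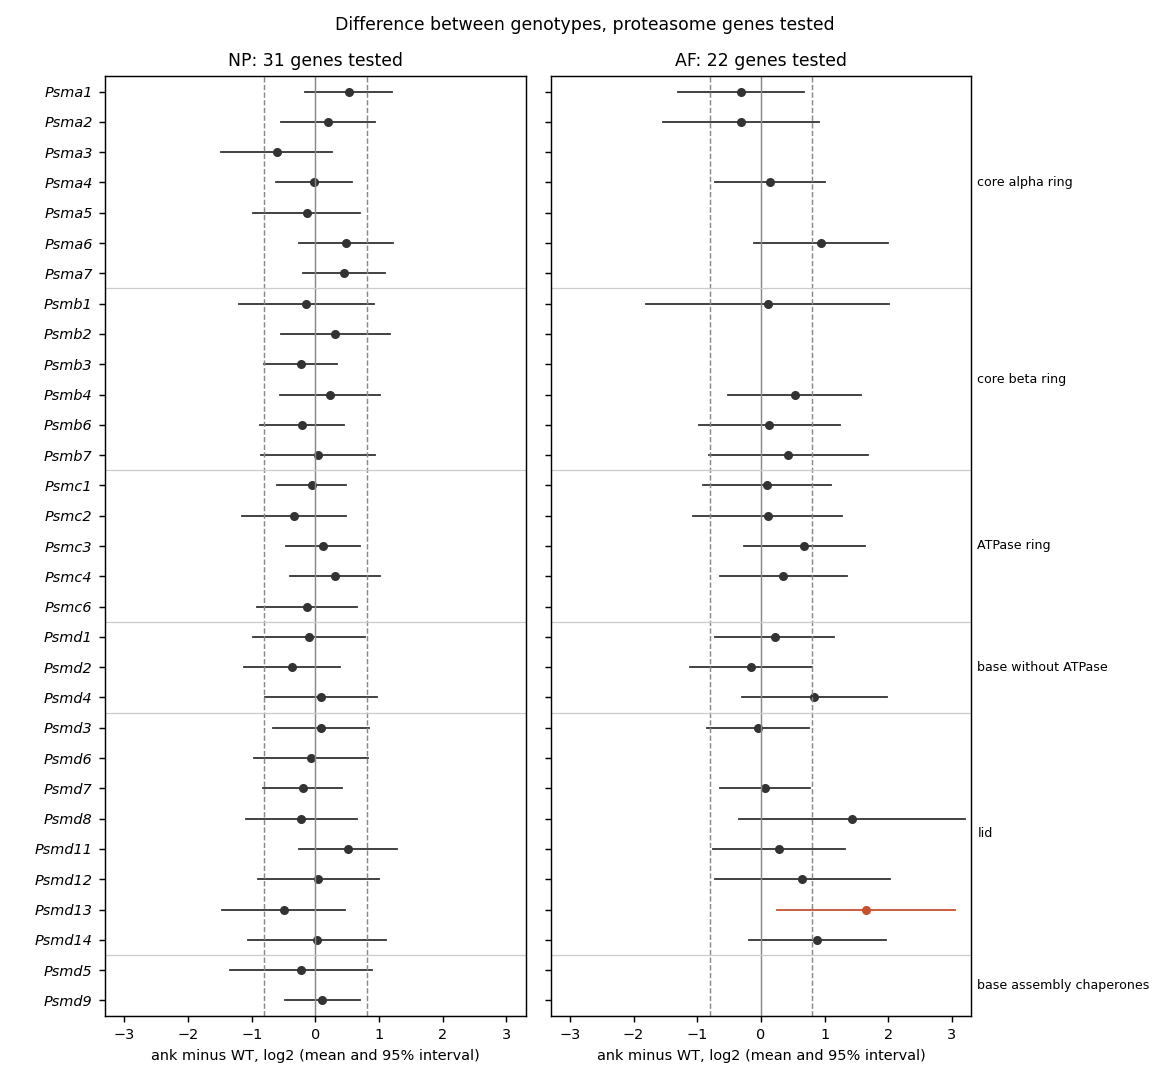
Difference between ank and WT (x axis, log2; point and 95% interval from limma) for the proteasome genes tested in NP (left, 31 genes) and AF (right, 22 genes), ordered by role, with dashed lines at a fold of 1.75. Psmd13 in AF, in red, is the gene that passed the study's thresholds, and its interval runs from 0.25 to 3.04.

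The lid held the largest AF differences. Psmd8, which helps lock the lid onto the base, read 8.24, 9.55, 6.95, 8.71 and 8.87 in WT AF. It read 7.20, 11.15, 8.69, 11.03 and 11.39 in ank AF, so that mice 34, 41 and 48 lay above every WT array and mice 31 and 39 did not. The difference was 1.43 ± 0.82 (95% interval -0.35 to 3.21), and 2.10 (adjusted p = 0.232) without ank mouse 31. Psmd8 was above background in 4 of 5 WT and 4 of 5 ank AF arrays, with WT mouse 53 and ank mouse 31 at background. Psmd14, the deubiquitinase that strips ubiquitin before degradation, differed by 0.89 ± 0.49 (adjusted p = 0.947). It was above background in 2 of 5 WT and 4 of 5 ank AF arrays, so its WT mean rests mostly on signals at background. Psmd12 differed by 0.65 and Psmd11 by 0.28. Psmd3 and Psmd7, other scaffold subunits of the lid, differed by -0.04 and 0.06, with a 95% interval of -0.64 to 0.77 for Psmd7.

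In the base, Psmd4 read 7.25, 8.63, 6.27, 7.20 and 6.56 in WT AF and 6.82, 7.80, 8.21, 8.98 and 8.29 in ank AF. WT mouse 33 lay within the ank range and ank mouse 31 within the WT range, and the difference was 0.84 ± 0.52 (adjusted p = 0.947). Psmd4 was above background in 1 of 5 WT AF arrays, that of mouse 33, and in 4 of 5 ank AF arrays. It thus passed the filter mainly through ank, and the AF fits that called it rest on WT signals mostly at background. Psmd1 differed by 0.21 and Psmd2 by -0.16. Of the ATPases, Psmc3 read 9.20, 10.31, 8.66, 8.93 and 9.16 in WT AF and 8.84, 9.87, 10.08, 10.33 and 10.53 in ank AF, a difference of 0.68 ± 0.43 (95% interval -0.27 to 1.63). The 4 WT arrays other than that of mouse 33 lay below the ank arrays other than that of mouse 31. Without WT mouse 33, Psmd13 (2.10), Psmd4 (1.20) and Psmc3 (0.94) passed the study's thresholds, where 7.79% of all genes did.

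In the core particle the largest AF difference was that of the alpha subunit Psma6. It read 8.84, 8.05, 7.63, 7.41 and 9.31 in WT AF and 8.45, 9.32, 8.87, 10.34 and 8.99 in ank AF, with overlapping ranges and a difference of 0.95 ± 0.48 (adjusted p = 0.947). Without WT mouse 59 it reached 1.21 and passed the study's thresholds, and Psmd13 and Psmd14 (1.12) passed with it, where 3.68% of all genes did. Psma1 and Psma2 were at -0.31 each and Psma4 at 0.14. All 4 beta subunits tested had positive differences, from 0.10 (Psmb1) to 0.53 (Psmb4), none past the thresholds. Psmb1 in ank AF ran from 5.59 in mouse 31 to 10.58 in mouse 41, an SD of 1.99. Without ank mouse 31, Psmd13 (2.03), Psmd8 (2.10), Psmd4 (1.14), Psma6 (1.13) and Psmc3 (0.95) passed, where 15.2% of all genes did. In that fit 22 of 22 differences were positive, against 74.1% of those of all genes. Ank mouse 31 was the lowest of the 10 AF arrays in 36.4% of the 22 genes (23% of all genes tested), and ank mouse 41 was the highest in 50% of them (23.2% of all).

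**Figure D4:**
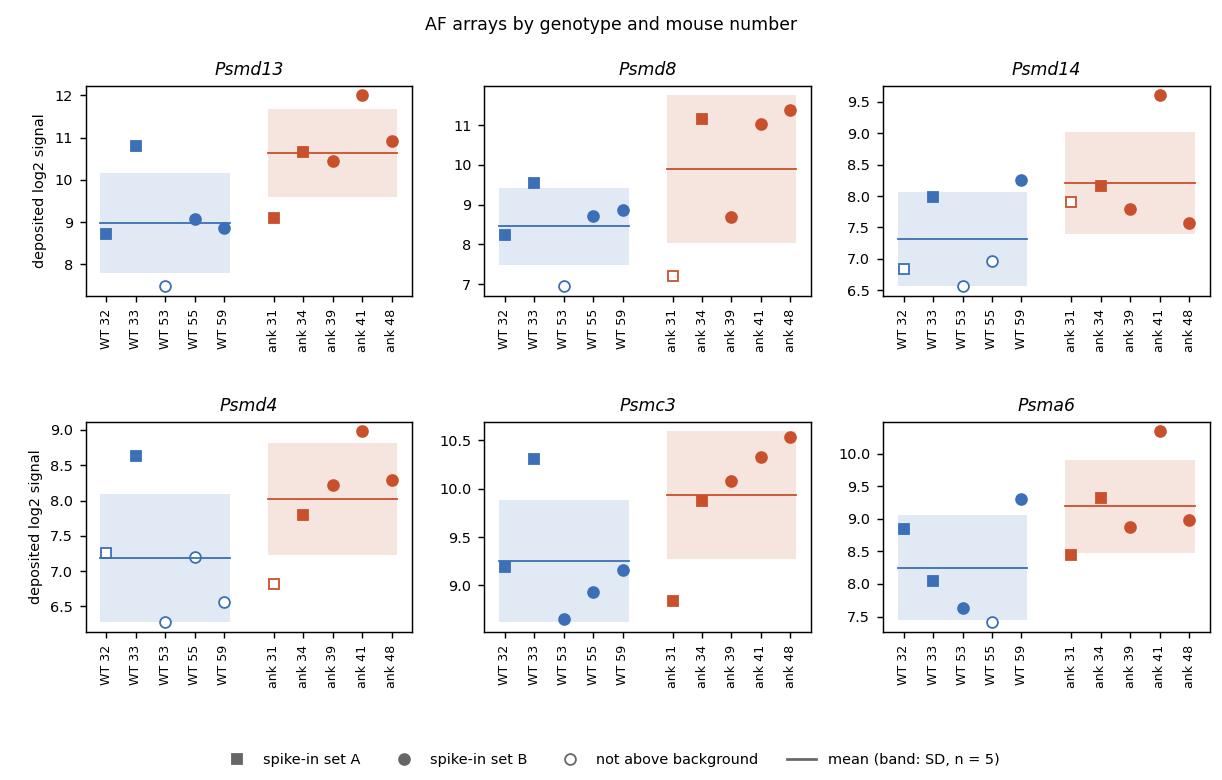
Deposited log2 signal (y axis) in each AF array (x axis, genotype and mouse number) for Psmd13, Psmd8, Psmd14, Psmd4, Psmc3 and Psma6, with squares for spike-in set A, circles for set B, open symbols for values not above background, and lines and bands for mean and SD (n = 5). WT mouse 33 and ank mouse 31 lie apart from the rest of their genotype for Psmd4 and Psmc3.

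The difference between tissues in the effect of ank was tested for the 31 genes over the 20 arrays. None of the 31, and none of all 6515 genes tested, passed after adjustment (limma, 309 of all genes and 1 of the 31 at an unadjusted p under 0.05). For Psmd13 the AF effect exceeded the NP effect by 2.15 ± 0.81 (adjusted p = 0.889). The median over the 31 genes was 0.27 and that over all genes 0.36, and with joint quantile normalization they were -0.01 and 0.18. On leaving out 1 array the median over the 31 genes ran from 0.08 without AF ank mouse 41 to 0.50 without AF ank mouse 31.

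AF and NP were compared within each genotype after quantile normalization of the 20 arrays together, because the medians of the deposited arrays differed by tissue, 5.71 to 5.98 in AF and 6.09 to 6.41 in NP. The 31 genes included 9 that passed the background filter through NP alone, among them Psma3, Psmd5 and Psmd9, so that for these the filter favoured a lower value in AF. On this scale 3 of 31 proteasome genes were called lower in AF than in NP of WT mice at an adjusted p under 0.05. None was called higher, whereas 31.7% of all genes were called in either direction and 23.5% lower. Of the 3, Psmd5 and Psma3 had passed the filter through NP alone, and Psmd8 in both tissues. Calls of Psmd5 and Psma3, in either genotype, are therefore not independent of the filter. The median of the 31 was -0.24 (all genes -0.43), with 10 positive. Without AF WT mouse 55, Psma3 lost its call and the ATPase Psmc4 was called higher in AF (1.11, adjusted p = 0.0257). The count depended on the scale. As deposited, 25 of 31 were called lower, where 68.2% of all genes were, and with arrays centred on their medians 16 of 31 were, where 50.6% were.

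Psmd5, a chaperone that holds the ATPase ring during assembly, read 8.01, 6.60, 9.06, 9.17 and 8.76 on the joint scale in WT NP and 4.60, 5.53, 5.80, 6.92 and 4.02 in WT AF. It was lower in AF in 5 of 5 WT mice, although AF mouse 55 exceeded NP mouse 33. It was above background in 4 of 5 NP and 0 of 5 AF arrays. Taking the higher of each AF array's background and its own signal, the NP mean was 1.27-fold higher. This figure is not a lower bound, since it makes no allowance for the spread between arrays. Its NP mean also includes mouse 33, itself at background (6.85 as deposited, against 7.92). No closer size can be given, since the AF signals were at background. The adjusted p of the fit was 0.00139. In ank mice, where 4 of 5 NP and 2 of 5 AF arrays were above background, Psmd5 was lower in AF in 5 of 5 mice (adjusted p = 0.0549), and with mouse as a block this was called (adjusted p = 0.0382), the 1 call among the 31 in ank, where 6.91% of all genes were called lower.

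Psmd8 read 11.84, 11.59, 11.35, 11.07 and 10.36 in WT NP and 8.77, 9.72, 7.52, 9.65 and 9.65 in WT AF, without overlap. It was lower in AF in 5 of 5 WT mice, by -2.18 ± 0.61, a fold of 4.53 (adjusted p = 0.0108). In AF it was above background in 4 of 5 WT arrays, so the fold rests in part on a signal at background. Without AF WT mouse 53, the array at background, the difference was -1.79 (adjusted p = 0.0346). In ank mice the ranges overlapped, with AF lower in 3 of 5 mice and a difference of -0.79 (adjusted p = 0.447). Psma3, an alpha subunit, read 7.84, 7.97, 8.60, 8.72 and 8.93 in WT NP and 7.35, 7.66, 6.99, 6.47 and 6.92 in WT AF. These ranges did not overlap, but only 1 of the 5 AF arrays was above background, against 5 of 5 in NP, so the measured difference of -1.33 ± 0.43 (adjusted p = 0.0242) rests mostly on AF signals at background. The call was lost without NP WT mouse 53, 55 or 59 or AF WT mouse 55, with differences of -1.48 to -1.18 over the fits that left out 1 array. In ank the difference was -0.48 (adjusted p = 0.52), with 3 NP and 2 AF arrays above background.

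Psmd13 differed between tissues by -1.20 ± 0.48 in WT (adjusted p = 0.0583), which was called with mouse as a block (adjusted p = 0.0439, 4 of 31 called, 25.9% of all genes lower), and by 0.66 in ank (adjusted p = 0.408). In ank mice 0 of 31 genes were called without the block (2 at an unadjusted p under 0.05, Psmd5 and Psmd9), where 7.64% of all genes were called in either direction and 5.2% lower. As deposited 19 of 31 were called lower in ank (52.9% of all), and 2, Psmd5 and Psmd9, with centred arrays (16.2% of all). Psmd9 was above background in 2 of 5 ank NP and 0 of 5 ank AF arrays, and no fold above background can be given for it. The median of the 31 in ank was -0.29, and 8.82e-05 with 16 of 31 positive without AF ank mouse 31. At the other end, Psmd7 was the gene of the 31 with the smallest p among those higher in WT AF, at 0.70 ± 0.33 (adjusted p = 0.102).

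**Figure D5:**
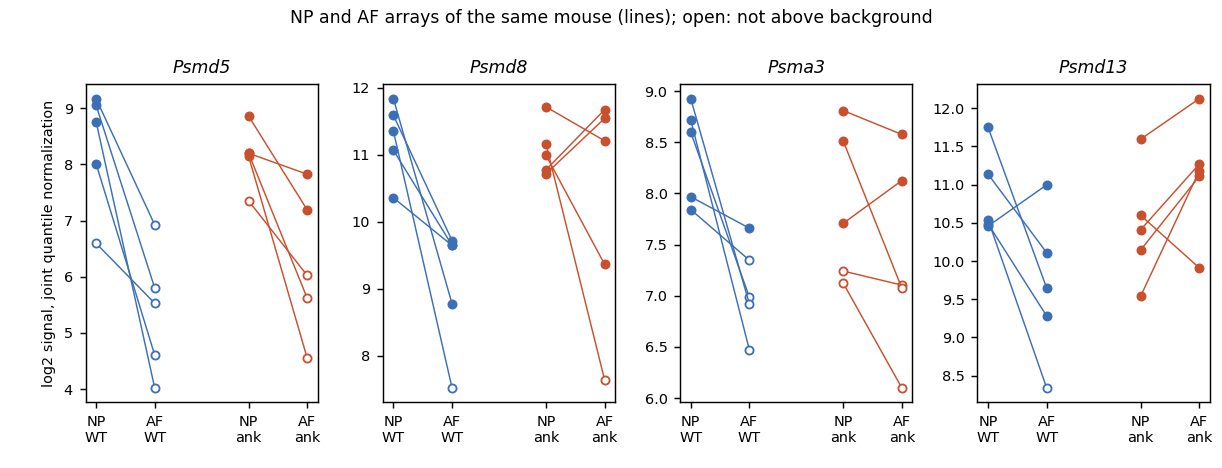
Log2 signal after joint quantile normalization (y axis) of Psmd5, Psmd8, Psma3 and Psmd13 in NP and AF of each genotype (x axis), with lines joining arrays of 1 mouse and open points not above background. Psmd5 is lower in AF than in NP in 10 of 10 mice, with AF points mostly open, and Psmd8 in 5 of 5 WT mice and 3 of 5 ank mice.

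Genes that act with the proteasome were read from 3 lists written from general knowledge, and 0 of their tested genes passed the study's thresholds in either tissue. The counts by direction below stand beside all genes tested, of which 37.8% were higher in ank NP (median -0.11) and 72.4% in ank AF (median 0.28). Of 18 measured activators, assembly factors and associated proteins, 15 were tested in NP (7 higher, 8 lower in ank, median -0.03) and 13 in AF (12 higher, median 0.27). Among them Psme3, the nuclear activator cap, differed by 1.09 ± 0.64 in AF (adjusted p = 0.947), Ube3c, a ubiquitin ligase on the proteasome, by 0.78, and Psmf1, an inhibitor, by 0.39. Of 10 measured genes of ubiquitin shuttling and the NFE2L1 route, 6 of 7 tested were lower in ank NP (median -0.27) and 5 of 6 tested were higher in ank AF (median 0.51). Vcp, the ATPase that extracts proteins for degradation, was the farthest in AF, with a mean of 7.76 ± 0.96 (SD) over the WT arrays and 9.18 ± 1.30 over the ank arrays. The difference was 1.42 ± 0.65 (limma, SE, adjusted p = 0.947). Vcp was above background in 2 of 5 WT and 4 of 5 ank AF arrays, so its WT mean rests mostly on signals at background. Nfe2l1 differed by -0.59 in NP and 0.70 in AF. Of the interferon and antigen presentation genes, which rise with the immunoproteasome, 7 of 8 tested were lower in ank NP (median -0.27) and 4 of 6 in ank AF (median -0.22). B2m, the light chain of class I molecules, differed by -0.76 ± 0.36 in NP (adjusted p = 0.973) and by -0.45 in AF.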

How the data were processed

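Total RNA with low integrity, by the study's methods, was labelled and hybridised to Clariom S mouse arrays, 1 array per mouse and tissue, 20 in all. The authors deposited log2 signals of each probe set, made with sst-rma in the Transcriptome Analysis Console, so that background correction, normalization and the summary over probes had been done. These steps make arrays of 1 run alike in distribution, and differences in overall RNA content are lost. Arrays have no read depth, so the precision depends on their number and quality, and each mouse is a replicate. Of the 22206 probe sets of genes and transcripts, 19572 had 1 symbol, and for 55 genes with several probe sets the one with the highest mean was kept.

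For each tissue the genotypes were compared in R 4.3.3 by limma 3.58.1 (lmFit, eBayes) on the deposited values, with Benjamini-Hochberg adjustment at 0.05 over all genes tested. The study's thresholds were counted on the same fits. The filter on receptor genes replaced the study's detection p-values, which were not used here. Tissues were compared with limma after quantile normalization of the 20 arrays together, since the deposited tissues probably came from separate runs. Same-numbered arrays came from the same mouse, so mouse as a block was fitted as an alternative: deviations of the 2 arrays of a mouse from their group means correlated by a median of 0.164 (-0.151 to 0.591), against -0.0354 between mice. The fits were tested on simulated data with independent noise for each gene and array. Those data held no shifts of whole arrays, so they cannot show how the fits behave under the differences between AF arrays. Arrays of 1 group correlated by 0.733 to 0.959, and no 2 were identical. Alternatives were other scalings and filters, sex, spike-in set or control AUC as a term, each spike-in set alone, the methods' t-test, and leaving out each array. Spike-in sets were split at a mean polyA control signal of 6.

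All members were accounted for, and the values per array were given for members that passed a threshold and for the largest differences by role and tissue. Psmd8 in the genotype comparison and Psmd14 were singled out after their values were seen. The members, lists and motifs were chosen with earlier results of these data known. Python 3.11.15 and matplotlib 3.10.9 made the figures.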

Additional observations from a re-analysis of the deposited data

Results flagged for a closer look

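A lone array, farther from the nearest of its group of 5 than 0.71 of the group's range, was found in 7 of 106 groups of values, where chance gives about 1 in 20, or 5.3. In NP these were Psma1 in WT mouse 33 (7.28, next 8.28), Psmd1 in ank mouse 48 (7.85, next 9.36) and Psmd9 in ank mouse 41 (7.11, next 7.73). In AF they were Psma1 (5.79, next 7.36) and Psmb1 (5.59, next 9.46) in ank mouse 31, Psmb4 in WT mouse 53 (5.70, next 7.34), and Psmc2 in WT mouse 33 (9.59, next 8.18), the one lone array above its group.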

How the results depend on the processing

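The NP count of 0 called genes became 2 within spike-in set A, and 0 to 2 over the fits that each left out 1 array. The AF count of 1 became 0 within set A, 5 within set B and 0 to 5 on leaving out 1 array. It was also 5 without ank mouse 31 with the background filter redone, a setting chosen after the data were seen. The AF median was -0.41 in set A, 0.91 in set B and 0.10 to 0.48 on leaving out 1 array. Within set A, which in AF held WT mouse 33 and ank mouse 31, the AF differences turned to -0.33 for Psmb4, -0.40 for Psmc3 and -0.63 for Psmd4. The NP difference of Psmd5 turned to 0.041 without WT mouse 53 (range -0.73 to 0.041). The counts lower in AF than NP were 25 and 16 in WT and 19 and 2 in ank on the deposited and centred scales, with medians of -1.35 and -1.02 in WT and -1.12 in ank on the deposited scale. They ran from 2 to 5 in WT and 0 to 1 in ank on leaving out 1 array. Without a background filter Psmc5, above background in 0 NP arrays, was also called, higher in WT AF. With mouse as a replicate block the pairing called 4 in WT and 1 in ank, and 0 for the difference between tissues. With the background set at the antigenomic mean, 36 genes were above background in AF WT and 34 in AF ank, instead of 20 and 22, and inducible beta genes passed where 0 had. No count of calls moved by over 1.5 times under the other alternatives. The low control AUC of the AF arrays limits what they could show.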
